A study of Homo sapiens with 40 samples.

Results

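Pseudouridine synthases are the enzymes that turn uridine in RNA into its isomer pseudouridine. The 10 genes described here are TRUB1, TRUB2, PUS1, PUS3, PUS7, PUS7L, PUS10, DKC1, RPUSD4 and PUSL1. They were picked by name, and the set was put together because TRUB1 was already known to be much lower in these data after transfection with an siRNA pool against IGF2BP2. Each name matched 1 row of a count table of 19962 genes, and all 10 were among the 11428 genes with enough counts to be tested. Because TRUB1 was chosen on the siIGF2BP2 comparison, its levels and every member's values in that comparison are given as a description, without p-values. Where a member is said to pass the threshold in that comparison, the call comes from the same test and is for scale only.

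Pseudouridine is made in transfer, ribosomal, small nuclear and messenger RNA. Most of the enzymes recognise their target RNA on their own, by its sequence or fold. Dyskerin, the product of DKC1, instead works inside H/ACA particles, in which a guide RNA selects the uridine.

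The study used RKO, an established human colorectal carcinoma line with GFP and a doxycycline-inducible Cas9, in 3 derivatives sorted for a blue fluorescent protein that was carried with a pair of guide RNAs. The guides were directed against IGF2BP2 (sgIGF2BP2), IGF2BP3 (sgIGF2BP3) or AAVS1 (sgAAVS1), a non-coding control locus. IGF2BP2 and IGF2BP3 encode RNA-binding proteins. The labels describe sorted populations and name no single clone.

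Each derivative was given DMSO or doxycycline (Dox), at 250 ng/mL over 72 hours. The sgIGF2BP2 cells were also transfected with a non-targeting siRNA (siControl) or the pool against IGF2BP2 (siIGF2BP2). The sgIGF2BP3 cells received siControl or the pool against IGF2BP3 (siIGF2BP3). The siRNA dose was 75 nM over 48 hours, and the sgAAVS1 cells had no siRNA groups. The titles name the siRNA of these groups, while their treatment field reads as untreated. All 10 groups received 250 µM of the nucleoside s4U over 2 hours, and the count table does not separate labelled from unlabelled RNA. Each group held 4 libraries from separate wells. No label says that the wells came from separately grown cultures, so the p-values measure the spread between these wells, which may be technical.

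The guides are shown because they define the 3 derivatives. They are 20 bases long and written 5′ to 3′, with capitals marking the 10 bases at the 3′ end, next to the site where Cas9 needs its PAM.
AAVS1 guide 1: cgctgtgcccCGATGCACAC
AAVS1 guide 2: ggcgcgtcgcTCGCTCGCTC
IGF2BP2 guide 1: atatgtgacgTTGACAACGG
IGF2BP2 guide 2: gtgcgctgagGTTCAACCCT
IGF2BP3 guide 1: tggcaccgacTGATAGAGCT
IGF2BP3 guide 2: gaagatacttTCTAGGTCCG
In the spliced GENCODE 29 transcripts of the 10 members, both strands, the closest match to any guide was IGF2BP2 guide 2 against TRUB2, with 4 mismatches. The AAVS1 guides came no closer than 5 mismatches to any member and 7 to PUSL1. The closest of the 6 guides to TRUB1 was IGF2BP3 guide 1, with 6 mismatches. Introns were not searched, and no PAM was required.

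Library totals ran from 10018181 to 24822807 counts, and the TMM scaling factors from 0.978 to 1.03. The library that stood farthest from its own group was siIGF2BP2 replicate 3, whose log2 values had an SD of 0.151 around the other replicates, against at most 0.127 in the others. The targeted mRNAs were lower as labelled. IGF2BP2 averaged 33.9 ± 3.50 per-million counts (CPM; SD, n = 4) with Dox against 85.3 ± 1.58 with DMSO in sgIGF2BP2 cells, and 30.2 ± 1.08 after siIGF2BP2 against 108 ± 4.10 after siControl. IGF2BP3 averaged 56.2 ± 3.62 against 180 ± 4.09 CPM with Dox in sgIGF2BP3 cells, and 24.7 ± 1.56 against 170 ± 4.78 CPM after siIGF2BP3. It was also lower with Dox in sgIGF2BP2 cells, at 151 ± 4.24 against 179 ± 9.22 CPM (log2 fold change -0.25, SE 0.040). After siIGF2BP2 the IGF2BP3 change was -0.040 (SE 0.040). The epithelial markers KRT8, KRT18, EPCAM and CDX2 were detected in every library, whereas CDH1 had no count in 32 and VIL1 in 35 of the 40. Of markers of other cells, PTPRC, PECAM1 and ALB never exceeded 3 counts, and COL1A1 never exceeded 11.

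DKC1 and TRUB2 had the highest levels per length of exon and PUS10 the lowest. That length is the union over all annotated transcripts (14037 bases for PUS7L, 2010 for PUS3), so the order depends on it. By median CPM alone, PUS7L (27.3) stood above TRUB1 (24.5) and PUS3 (13.8). As medians of 40 libraries, CPM divided by the exon length in kilobases (RPKM) were 41.0 for DKC1, 28.2 for TRUB2, 14.9 for RPUSD4, 13.8 for PUSL1 and 12.8 for PUS1. The other five had 9.84 for PUS7, 6.87 for PUS3, 6.81 for TRUB1, 1.94 for PUS7L and 0.337 for PUS10. No member had a library without counts, but PUS10 rested on 20 to 75 counts per library, and its values within a group varied by 21.9% on average (coefficient of variation). TRUB2 varied by 3.19% and TRUB1 by 8.35%. Between the highest and the lowest group mean, the ratio was 3.00 for TRUB1, 1.87 for PUS10 and 1.51 for PUS7L. It was between 1.08 (TRUB2) and 1.36 (PUSL1) for the remaining genes.

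**Figure D1:**
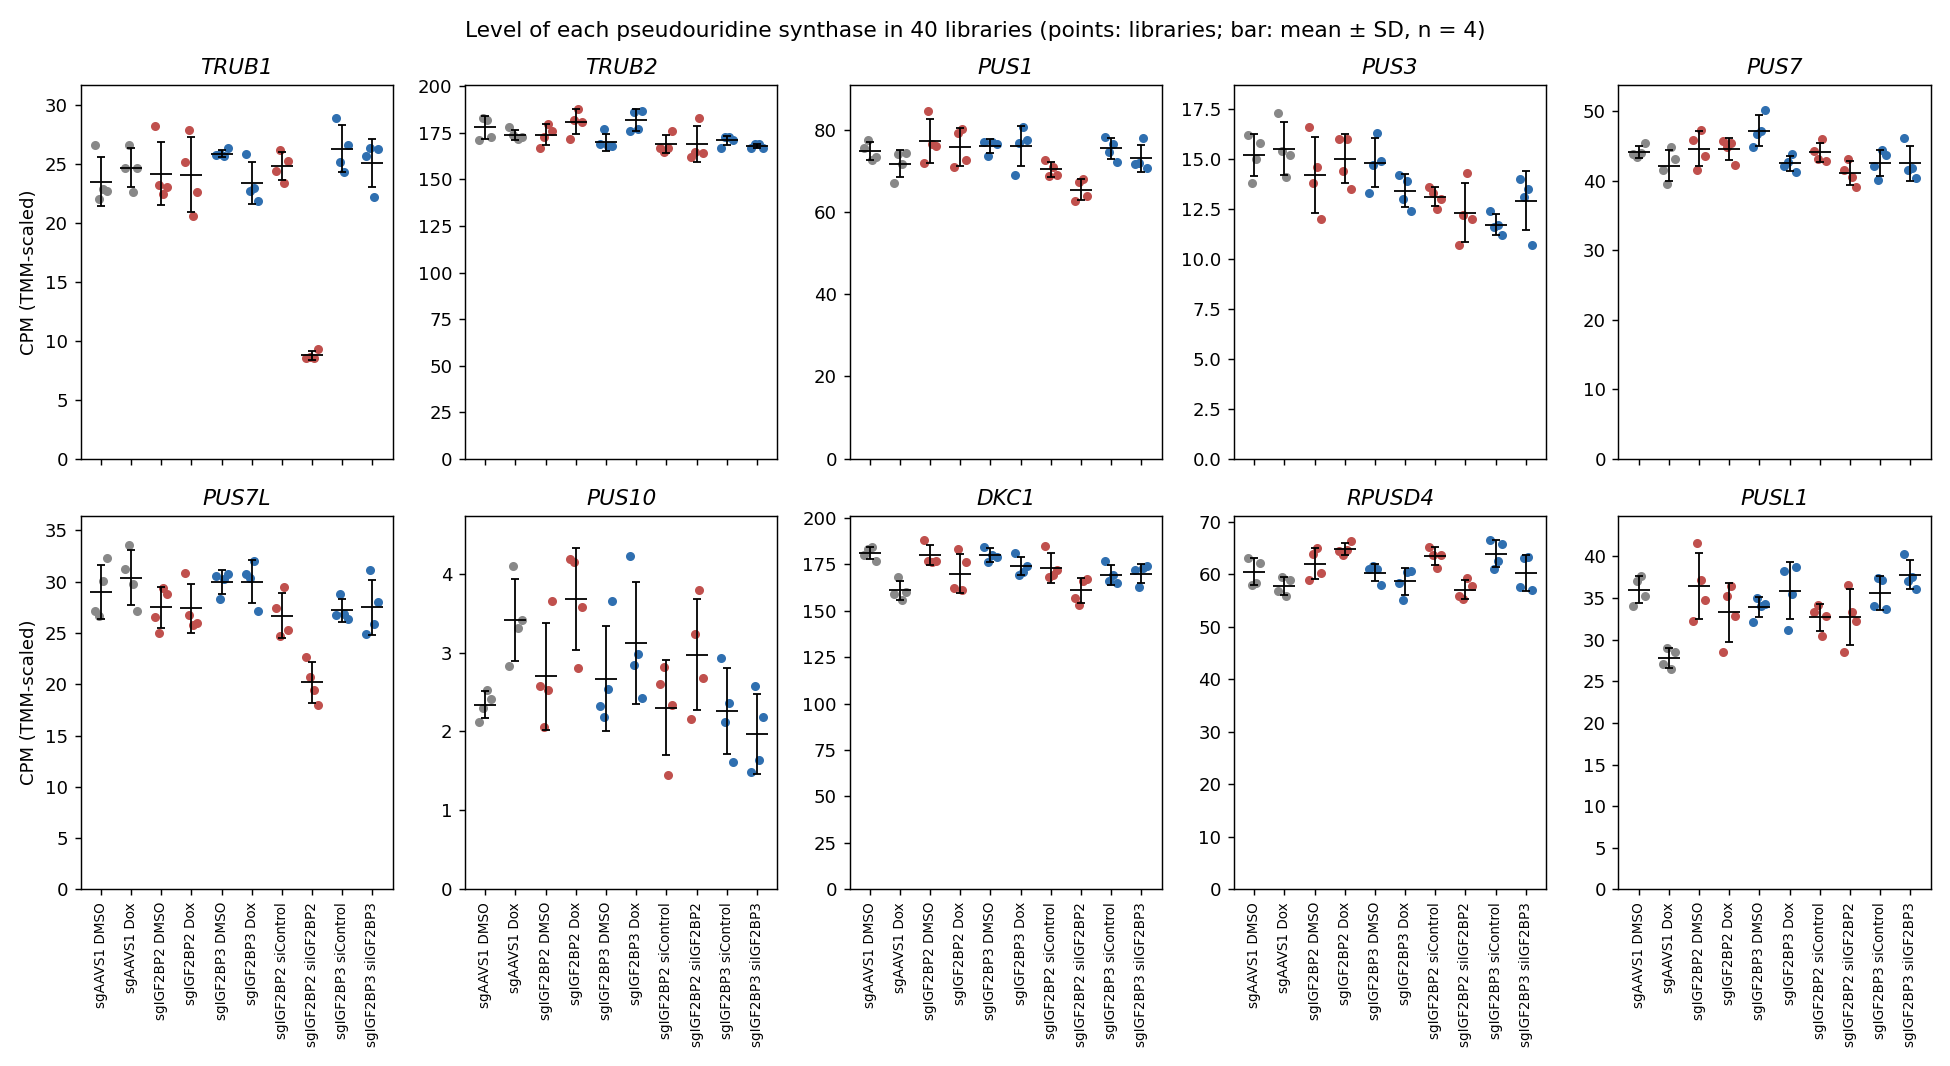
CPM of the 10 synthases (vertical axes, each starting at 0) in the 10 groups (horizontal axis; grey sgAAVS1, red sgIGF2BP2, blue sgIGF2BP3). Points are libraries and bars are mean ± SD, n = 4; TRUB1 averaged 8.78 CPM after siIGF2BP2 and 23.4 to 26.3 CPM in the other 9 groups.

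TRUB1 is a TruB-type synthase that modifies the T-loop of transfer RNAs and a set of messenger RNAs. The gene (ENSG00000165832) lies on the forward strand of chromosome 10 at chr10:114938193-114977676 in GRCh38, and its exons share no bases with another annotated gene. TRUB1 measured 8.57, 8.62, 8.55 and 9.35 CPM in the 4 siIGF2BP2 libraries. The 4 siControl libraries of the same sgIGF2BP2 cells had 24.4, 26.2, 23.4 and 25.3 CPM. The groups did not overlap: the highest siIGF2BP2 library lay below the lowest siControl library, and 35.4% of the siControl level was left. The log2 fold change was -1.49 (SE 0.088), and -1.48 without siIGF2BP2 replicate 3. Of the 11428 tested genes, TRUB1 ranked 5 from the lowest in that comparison, in which 31 genes had a log2 fold change of -1 or below. In bulk RNA, fewer cells with the transcript and less of it per cell cannot be told apart.

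In the other 9 groups the TRUB1 means ran from 23.4 to 26.3 CPM, and each group overlapped the next in order. With Dox in sgIGF2BP2 cells, where IGF2BP2 mRNA was at 39.7% of its DMSO level, TRUB1 measured 25.2, 27.9, 20.6 and 22.6 CPM. The matching DMSO libraries had 28.2, 23.2, 22.5 and 23.1 CPM, so the groups overlapped, with a log2 fold change of 0.022 (SE 0.075). After siIGF2BP2, IGF2BP2 mRNA was at 27.9% of siControl, which is a different baseline. In these cells IGF2BP2 averaged 108 CPM with siControl against 85.3 CPM with DMSO (log2 fold change 0.34, SE 0.043). The lowered mRNA levels of IGF2BP2 were 30.2 CPM after siIGF2BP2 and 33.9 CPM with Dox. These counts do not separate transcripts edited by Cas9 from unedited ones, and they hold no protein levels. The treatments also differed in length. Whether siIGF2BP2 and Dox depleted IGF2BP2 to the same extent was therefore not tested. TRUB1 showed log2 fold changes of 0.071 (SE 0.076) with Dox in sgAAVS1 cells, -0.15 (SE 0.075) with Dox in sgIGF2BP3 cells and -0.053 (SE 0.074) after siIGF2BP3, all between overlapping groups. The siIGF2BP3 change minus the siIGF2BP2 change was 1.44 (SE 0.12). The Dox and siIGF2BP2 changes in sgIGF2BP2 cells were not tested against each other, because TRUB1 was chosen for that contrast. Only 4 other tested genes lay within 1 Mb of TRUB1. After siIGF2BP2 2 of them were called lower and 0 higher, with a median log2 fold change of -0.18. In that comparison 36.8% of all tested genes were called.

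**Figure D2:**
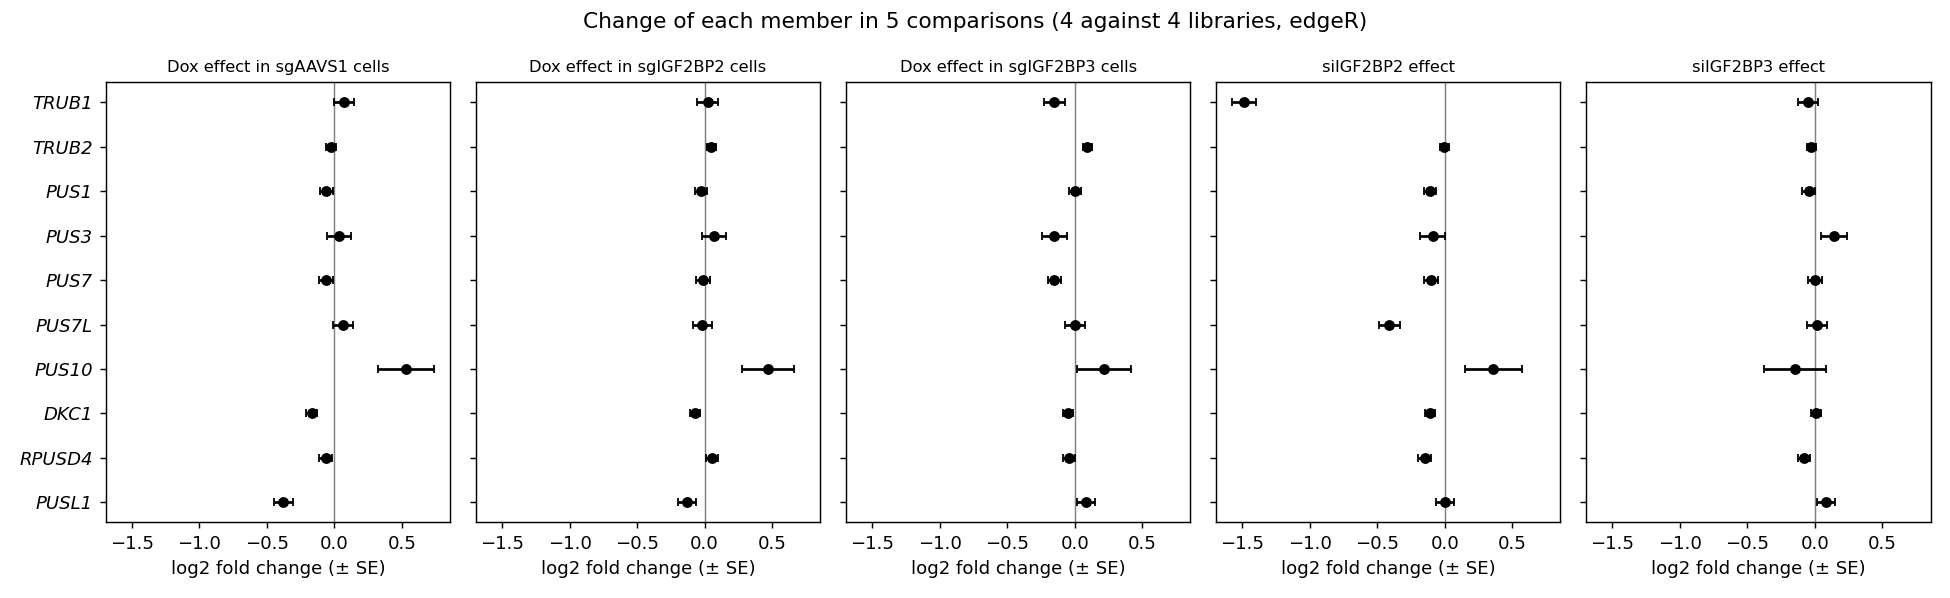
Log2 fold change with SE (horizontal axes) of each synthase in the 3 Dox and 2 siRNA comparisons, 4 against 4 libraries each, from edgeR. TRUB1 stood at -1.49 after siIGF2BP2 and between -0.15 and 0.071 in the other 4 comparisons.

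TRUB2, the other TruB-type enzyme, acts in mitochondria. It held between 162 and 188 CPM in all 40 libraries. Its log2 fold change was -0.0030 (SE 0.036) after siIGF2BP2 and lay between -0.027 and 0.094 in the 3 Dox and the siIGF2BP3 comparisons, none of which passed the test. The TRUB2 gene (chr9:128305161-128322742, reverse strand) shares 207 exonic bases with COQ4 on the opposite strand. COQ4 was higher after siIGF2BP2 (146 ± 5.54 against 108 ± 3.04 CPM). Whether the counting used the strand is not given in the sources used here, and the part of such shared bases was not tested.

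RPUSD4 is likewise mitochondrial. After siIGF2BP2 its libraries had 55.8, 55.2, 59.2 and 57.7 CPM, and after siControl 65.1, 63.7, 61.1 and 63.7 CPM. The groups did not overlap, but the difference was small, at a log2 fold change of -0.15 (SE 0.045). In the other 4 Dox and siRNA comparisons its groups overlapped, with log2 fold changes between -0.083 and 0.057. RPUSD4 shares 243 exonic bases with FAM118B on the opposite strand, for which the siIGF2BP2 log2 fold change was -0.046 (SE 0.067).

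PUS7L, a paralogue of PUS7 with few described targets, was the member with the next largest difference after siIGF2BP2 below 0. Its siIGF2BP2 libraries had 22.7, 20.7, 19.4 and 18.0 CPM, against 27.4, 24.7, 29.5 and 25.3 CPM after siControl. These groups did not overlap, and 75.6% of the siControl level was left (log2 fold change -0.41, SE 0.077). The change after siIGF2BP3 was 0.014 (SE 0.074), and the difference between the siRNA changes was 0.43 (SE 0.11). With Dox in sgIGF2BP2 cells the log2 fold change was -0.016 (SE 0.073).

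PUS7 itself, which modifies transfer and messenger RNAs, measured 41.1 ± 1.69 CPM after siIGF2BP2 against 44.1 ± 1.38 after siControl, with overlapping libraries. With Dox in sgIGF2BP3 cells it had 42.2, 42.7, 43.9 and 41.3 CPM against 44.9, 46.7, 47.2 and 50.2 CPM with DMSO. Although these groups did not overlap, the log2 fold change of -0.15 (SE 0.051) missed the threshold (edgeR adjusted p = 0.0938).

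Over all members, 4 of 10 passed the threshold after siIGF2BP2 (TRUB1, PUS7L, RPUSD4 and DKC1), all lower, in a comparison where 36.8% of tested genes did. The share is printed for scale only, since the set was chosen on this comparison. The median log2 fold change of the members was -0.11, against 0.011 over all tested genes. Below 0 were 8 of 10 members, beside 47.9% of all tested genes. These 8 include TRUB1, on which the set was chosen, and TRUB2, at -0.0030. Such a count was not particular to siIGF2BP2. For siControl against DMSO, 8 of 10 members were below 0 in sgIGF2BP2 cells, beside 50.7% of all tested genes. In sgIGF2BP3 cells 6 of 10 were, beside 51.3%. In the siIGF2BP2 libraries the keratin KRT18 averaged 120 CPM against 170 after siControl, and KRT8 65.6 against 44.9. The part of any wider shift of the cells in the members' values was not tested. The siIGF2BP3 minus siIGF2BP2 difference restates the choice of TRUB1, so its count is also for scale only: 2 members (TRUB1 and PUS7L) and 18.7% of genes were past the threshold. After siIGF2BP3 alone, 0 of 10 members passed, where 2.34% of genes did. No member had an unadjusted p under 0.05 there, and DESeq2 also called 0.

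In the Dox comparisons, PUSL1 and DKC1 fell in the sgAAVS1 control cells, and no other member passed in any of the 3 derivatives. That made 2 of 10 members in sgAAVS1 cells, where 15.9% of genes were called. In sgIGF2BP2 cells 0 of 10 members were called (20.4% of genes), with 1 member, PUS10, at an unadjusted p under 0.05. In sgIGF2BP3 cells 0 of 10 were called (2.64% of genes), with 3 at an unadjusted p under 0.05 (PUS7, TRUB2 and TRUB1). DESeq2 called 0 in both.

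PUSL1 encodes a PUS1-like enzyme. The gene (ENSG00000169972) lies at chr1:1308567-1311677 on the forward strand. With Dox the sgAAVS1 libraries had 27.1, 29.0, 26.5 and 28.5 CPM, and with DMSO 34.1, 37.1, 37.6 and 35.3 CPM. The groups did not overlap, and Dox left 77.0% of the DMSO level (log2 fold change -0.38, SE 0.071, edgeR adjusted p = 5.93e-05). In sgIGF2BP2 cells the change was -0.13 (SE 0.068, adjusted p = 0.166), and in sgIGF2BP3 cells 0.086 (SE 0.068, adjusted p = 0.572), both between overlapping groups.

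The Dox change of PUSL1 differed between sgIGF2BP3 and sgAAVS1 cells by 0.46 (SE 0.098, adjusted p = 0.00128), the 1 member called in a test that called 7.78% of genes. The difference between sgIGF2BP2 and sgAAVS1 cells was 0.24 (SE 0.098, adjusted p = 0.121). In that test 0 members and 6.97% of genes were called, PUSL1 was the 1 member with an unadjusted p under 0.05, and DESeq2 called 0. PUSL1 was called there, at 0.30, without sgIGF2BP2 DMSO replicate 2 and, at 0.31, without sgIGF2BP2 Dox replicate 1. These differences share the sgAAVS1 libraries with each other and with the sgAAVS1 comparison.

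PUSL1 shares 93 exonic bases with INTS11 and 168 with ACAP3, both on the opposite strand. With Dox in sgAAVS1 cells INTS11 had 163 ± 5.65 CPM against 179 ± 5.40 (log2 fold change -0.13, adjusted p = 0.0120), and ACAP3 52.5 ± 1.46 against 56.5 ± 3.38 (-0.10, adjusted p = 0.204). Of the 38 other tested genes within 1 Mb of PUSL1, 8 fell and 0 rose, with a median of -0.082, where 15.9% of all tested genes were called. Members that were not called also had such neighbours. Around TRUB2, at -0.027 itself, 15 of 52 genes fell and 4 rose, with a median of -0.067. Around TRUB1 0 of 4 fell and 1 rose. The part of the PUSL1 neighbourhood, or of shared bases, in the PUSL1 value was not tested.

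DKC1 encodes dyskerin, the catalytic subunit of the H/ACA particles and a part of telomerase. In sgAAVS1 cells it measured 159, 168, 156 and 160 CPM with Dox and 180, 183, 184 and 177 CPM with DMSO. The groups did not overlap, and the level with Dox was 88.8% of that with DMSO (log2 fold change -0.17, SE 0.038, edgeR adjusted p = 0.000653). The change was -0.071 (SE 0.038) in sgIGF2BP2 and -0.048 (SE 0.038) in sgIGF2BP3 cells, where it did not pass. Without sgIGF2BP2 Dox replicate 2 it was called in sgIGF2BP2 cells (-0.11, adjusted p = 0.0447). Differences from sgAAVS1 cells were 0.10 (SE 0.053, adjusted p = 0.266) and 0.12 (SE 0.053, adjusted p = 0.140). Of 30 other tested genes within 1 Mb of DKC1, 8 fell and 0 rose with Dox in sgAAVS1 cells, with a median of -0.080. Over all tested genes 15.9% were called in that comparison.

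After siIGF2BP2 DKC1 had 157, 153, 166 and 167 CPM, against 185, 168, 169 and 172 CPM after siControl. The nearest libraries of these groups lay close together, at 167 and 168 CPM, and the log2 fold change was -0.11 (SE 0.038). Without siControl replicate 1 it was -0.07.

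PUS10, which acts on transfer RNA and in microRNA processing, was the only member with higher group means under Dox in all 3 derivatives. In sgAAVS1 cells it had 2.83, 4.09, 3.31 and 3.41 CPM with Dox and 2.12, 2.30, 2.52 and 2.41 CPM with DMSO, without overlap. The log2 fold change of 0.53 (SE 0.21) missed the threshold (edgeR adjusted p = 0.0673). It was called (adjusted p = 0.0411) when only the compared groups were fitted. The changes were 0.47 (SE 0.19, adjusted p = 0.0717) in sgIGF2BP2 and 0.22 (SE 0.20, adjusted p = 0.646) in sgIGF2BP3 cells, between overlapping groups. In sgIGF2BP2 cells it was called without DMSO replicate 4 (0.63) and without Dox replicate 3 (0.56). After siIGF2BP2 its value was 0.36 (SE 0.21), with overlapping libraries. PUS10 shares 293 exonic bases with PEX13 on the opposite strand, whose log2 fold change after siIGF2BP2 was -0.55 (SE 0.070).

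PUS1 and PUS3 modify transfer RNAs, PUS1 both in the nucleus and in mitochondria. After siIGF2BP2 PUS1 had 62.6 to 68.0 CPM against 68.8 to 72.8 after siControl, close but without overlap, and its log2 fold change of -0.11 (SE 0.047) was not among those called. Without siIGF2BP2 replicate 3 it was -0.13 and past the threshold. PUS3 had -0.091 (SE 0.092) there, between overlapping groups. With Dox, and after siIGF2BP3, PUS1 stayed between -0.060 and 0.0018 and PUS3 between -0.15 and 0.14, none of which passed.

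Comparing siControl with DMSO in the same derivative gives the members' change between the controls of the siRNA and the Dox experiments. These controls differ in transfection as well as in DMSO, which cannot be told apart, and they are the same libraries that serve above. In sgIGF2BP3 cells 2 of 10 members, PUS3 and PUS7, fell, where 19.4% of genes were called. PUS3 had 12.4, 11.6, 11.7 and 11.2 CPM with siControl and 13.3, 14.7, 16.3 and 14.9 CPM with DMSO. These groups did not overlap (log2 fold change -0.34, SE 0.092, edgeR adjusted p = 0.00494). PUS7 differed by -0.15 (SE 0.051, adjusted p = 0.0264), also without overlap, but was not called without DMSO replicate 4 (adjusted p = 0.124), siControl replicate 1 (0.0545) or siControl replicate 2 (0.143).

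In sgIGF2BP2 cells 1 of 10 members fell, where 18.4% of genes were called. This was PUS1, at 72.8, 68.8, 71.0 and 69.0 CPM with siControl and 72.0, 84.7, 76.7 and 76.0 CPM with DMSO (log2 fold change -0.13, SE 0.046, adjusted p = 0.0344). Its groups overlapped, and the call was lost without DMSO replicate 2 or 3, or siControl replicate 2, 3 or 4, with adjusted p between 0.0579 and 0.211. PUS3 had -0.12 (SE 0.088) in these cells. Between the derivatives with DMSO alone, 0 of 10 members were called for sgIGF2BP2 against sgAAVS1 and 0 of 10 for sgIGF2BP3 against sgAAVS1, where 0.0175% of genes were called in each. No member had an unadjusted p under 0.05 in either, and DESeq2 called 0.

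The partners of DKC1 in H/ACA particles (NOP10, NHP2, GAR1, and the assembly factors NAF1 and SHQ1) and the remaining RPUSD enzymes (RPUSD1, RPUSD2, RPUSD3) gave 8 tested genes. With Dox in sgAAVS1 cells 1 fell, RPUSD3, from 45.4 ± 2.95 to 39.9 ± 2.08 CPM (log2 fold change -0.18, adjusted p = 0.0323). None of the 8 was called with Dox in the other derivatives or after siIGF2BP3. After siIGF2BP2 3 were called, or 37.5% against 36.8% of all tested genes. NAF1 averaged 19.8 ± 1.86 against 24.4 ± 0.915 CPM (-0.30, SE 0.073), RPUSD1 136 ± 5.32 against 150 ± 7.93 (-0.14, SE 0.045) and NOP10 175 ± 13.4 against 158 ± 2.65 (0.15, SE 0.039). The list's median was -0.095, beside 0.011 over all tested genes.

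Of 59 other tRNA modification enzymes 57 were tested. After siIGF2BP2 3 of these were called higher and 16 lower, or 33.3% against 36.8% of all tested genes, with a median of -0.082 beside 0.011 over all genes. Among the lower ones were YRDC, which starts the making of the t6A base (-0.51, SE 0.054), and THUMPD1, which helps NAT10 acetylate tRNA (-0.30, SE 0.064). The higher ones were URM1 (0.29, SE 0.037), THG1L (0.28, SE 0.067) and LAGE3 (0.16, SE 0.059).

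With Dox, 4 of these genes rose and 8 fell in sgAAVS1 cells, 1 rose and 1 fell in sgIGF2BP2 cells, and 0 rose and 2 fell in sgIGF2BP3 cells. The shares called were 21.1%, 3.51% and 3.51%, against 15.9%, 20.4% and 2.64% of all tested genes. The lowest in sgAAVS1 cells was the dihydrouridine synthase DUS1L (-0.37, SE 0.037, adjusted p = 3.78e-12), followed by METTL2A (-0.28, adjusted p = 0.00101). Both lie on distal 17q, where the 251 tested genes from SPOP to the chromosome's end had a median of -0.18, with 131 lower and 1 higher. In sgIGF2BP2 and sgIGF2BP3 cells those medians were 0.021 and 0.012. No pseudouridine synthase of the set lies there. QTRT1 (-0.21, adjusted p = 0.00368), on chromosome 19, also fell in sgAAVS1 cells, and NSUN3 (0.34, adjusted p = 0.0117), TYW1 (0.26, adjusted p = 0.0124) and THG1L (0.21, adjusted p = 0.0242) rose. In sgIGF2BP3 cells TRDMT1 (-0.38, adjusted p = 0.0105) and TRMT6 (-0.14, adjusted p = 0.0252) fell, and after siIGF2BP3 NAT10 fell (-0.14, adjusted p = 0.0141) as the 1 call among 57.

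The genes whose means over the 10 groups were most like those of TRUB1 were sought among 84 genes that varied by at least 1 log2 unit between group means and had a mean log2 CPM of at least 2. The 5 with the highest Pearson correlation over groups were THOC7 (r = 0.994), G3BP2 (0.992), SLC37A3 (0.991), RALA (0.989) and USP12 (0.987). These values rest on the siIGF2BP2 group, and so does the filter. All 5 genes reached a range of 1 log2 unit only through that group. In the other 9 groups the means of THOC7 ran from 30.1 to 32.6 CPM and those of G3BP2 from 132 to 154 CPM. A high r was thus largely fixed by the selection. Over the other 9 groups r was 0.38, 0.78, 0.64, 0.40 and 0.54 in the same order. THOC7 averaged 11.8 ± 2.30 CPM after siIGF2BP2 against 30.1 ± 1.18 after siControl (log2 fold change -1.32, SE 0.089). G3BP2 averaged 62.5 ± 4.71 against 154 ± 6.30 CPM (-1.30, SE 0.044), and the log2 fold changes of the rest were -1.04 (SLC37A3), -1.18 (RALA) and -0.94 (USP12). The points share libraries and scaling, so r is a description.

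**Figure D3:**
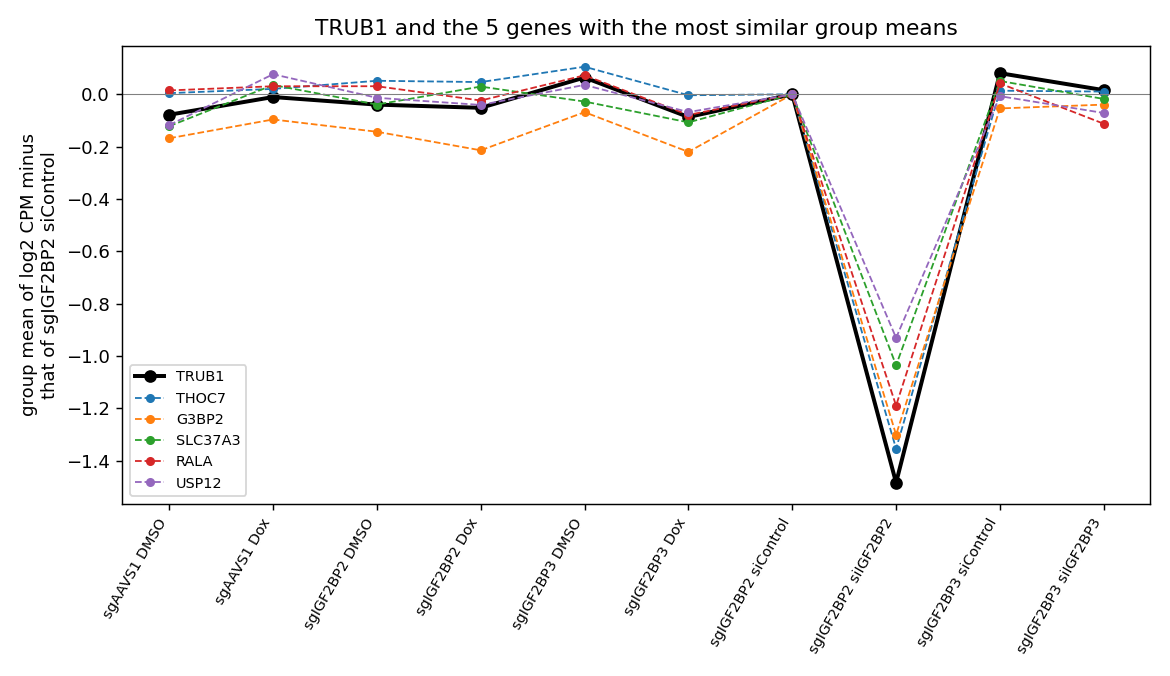
Group mean of log2 CPM minus that of the sgIGF2BP2 siControl group (vertical axis) for TRUB1 (black) and the 5 genes with the most similar means, over the 10 groups. The 6 genes lie lowest in the siIGF2BP2 group, which follows from how they were picked. There the TRUB1 log2 fold change was -1.49 and that of USP12 -0.94.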

How the data were processed

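Poly(A) RNA from 40 SLAMseq libraries of RKO cells was measured in 10 groups of 4. The authors deposited whole-number read counts per Ensembl gene. The submitters' processing notes name bcl2fastq 2.20.0.422, STAR 2.7.5c and the build hg38. The counting tool, strand setting and annotation are not given in the sources used here. Names and coordinates were taken from GENCODE 29 (GRCh38), which named 19847 of 19962 genes.

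Counts were fitted in R 4.3.3 with edgeR 4.0.16 over all 40 libraries, with 1 coefficient per group, TMM scaling, filterByExpr (minimum count 10) and the quasi-likelihood test. P-values were adjusted by Benjamini-Hochberg over 11428 genes, and a gene was called at an adjusted p under 0.05. The common biological coefficient of variation was 3.79%. SE is the absolute log2 fold change over the root of the test's F. CPM used TMM-scaled totals, and RPKM divided it by the exon length of the union of transcripts. The depth of 10018181 to 24822807 counts per library sets the counting error.

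Members and lists were chosen with earlier results of these data known. Named genes were the 10 members, the 5 genes most similar to TRUB1 by Pearson r, called genes of the H/ACA and RPUSD list, and up to 3 called genes per direction of the tRNA modification list. Of that list LCMT2 and DUS4L were not tested. The values of 1 called gene of that list are not reported here. On simulated counts for the siIGF2BP2 comparison (11361 genes), 79.1% of 1.25-fold, 98.5% of 1.5-fold and 100% of 2-fold changes were called, and 8.42% of calls were false.

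Deviations of same-numbered libraries from their group means correlated between -0.25 and 0.36, with 12 of 36 pairs over 0.1. In 1 of 9 comparisons, siControl against DMSO in sgIGF2BP2 cells, every pair was over 0.1 (0.104 to 0.240). There the numbers were taken as a possible pairing of the samples, on the data alone, since no label ties them. The values reported for that comparison come from the unpaired fit, and only the replicate block uses the numbers. Alternatives were RLE scaling, no low-count filter, a replicate block, the compared groups only, DESeq2 1.42.0 and leaving out each library.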

Additional observations from a re-analysis of the deposited data

Results flagged for a closer look

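Within 8 of the 100 sets of 4 libraries (10 genes in 10 groups), 1 library stood apart from the rest, with a gap to its nearest neighbour above Dixon's limit for that share of the group's range. Chance flags about 1 in 20 groups. In sgIGF2BP2 cells with DMSO, replicate 1 was the highest for TRUB1 (28.2 CPM) and for DKC1 (188 CPM). Among siIGF2BP2 libraries, replicate 4 was the highest for TRUB1 (9.35 CPM) and replicate 3 for TRUB2 (183 CPM). In sgIGF2BP3 cells with DMSO, replicate 2 was the highest for TRUB2 (177 CPM) and the lowest for PUS1 (73.6 CPM), and replicate 4 was the lowest for RPUSD4 (57.9 CPM). Replicate 3 of siIGF2BP3 was the highest for PUS1 (78.0 CPM).

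The changes of 3 members differed between pairs of groups. For PUSL1 the Dox change in sgIGF2BP3 minus that in sgAAVS1 cells was 0.46 on the log2 scale. The siIGF2BP3 change in sgIGF2BP3 cells minus the siIGF2BP2 change in sgIGF2BP2 cells, which differ in siRNA pool and derivative together, was 1.44 for TRUB1 and 0.43 for PUS7L, both given as a description because the set was chosen on the siIGF2BP2 comparison.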

How the results depend on the processing

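The TRUB1 log2 fold change after siIGF2BP2 lay between -1.53 and -1.47 over 13 alternatives, and no called member changed direction in any alternative. PUSL1 and DKC1 with Dox in sgAAVS1 cells, and PUS3 in siControl against DMSO in sgIGF2BP3 cells, kept their calls in all 13. Counts of members called moved where 1 library was left out. They ranged from 0 to 1 with Dox in sgIGF2BP2 cells (main count 0), from 0 to 1 for the sgIGF2BP2 minus sgAAVS1 difference (0), from 0 to 2 for siControl against DMSO in sgIGF2BP2 cells (1) and from 1 to 2 in sgIGF2BP3 cells (2). Without the low-count filter the last count was 1, since PUS7 lost its call. After siIGF2BP2, 3 to 5 members passed when a library was left out, where the main fit called 36.8% of all tested genes. These counts are for scale only, since the set was chosen on that comparison. DKC1 was past the threshold in all of these fits except without siControl replicate 1 and without siIGF2BP2 replicate 2.

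With the replicate block, the members called numbered 2, 0 and 0 with Dox in sgAAVS1, sgIGF2BP2 and sgIGF2BP3 cells. They numbered 4 after siIGF2BP2, again for scale only, and 0 after siIGF2BP3, and no member's call changed in any comparison. For the pairing in siControl against DMSO in sgIGF2BP2 cells, PUS1 had -0.13 with the block.

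Counts over all genes moved by more than 1.5 times in a few cases. With Dox in sgIGF2BP3 cells 302 genes were called, against 477 when only the compared groups were fitted and 108 to 172 without sgIGF2BP3 DMSO replicate 3 or 4 or Dox replicate 2 or 4. After siIGF2BP3 267 became 465 with the compared groups only. The sgIGF2BP3 minus sgAAVS1 difference called 889, and 428, 540 and 1415 without sgIGF2BP3 Dox replicate 4, sgAAVS1 DMSO replicate 2 and sgAAVS1 DMSO replicate 4. Between derivatives with DMSO, 2 calls became 1 to 74. The causes were not tested. PUS10, at 20 to 75 counts per library, is the member that depth limits most.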
